A study of Mus musculus with 6 samples.

Results

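The aminoacyl-tRNA synthetases are the enzymes that join each amino acid to its own tRNA, and their genes were followed through RNA-seq of RAW264.7, a mouse macrophage line from an ascites tumour induced by Abelson murine leukemia virus. The family was taken by gene symbol: 20 genes whose enzymes work in the cytosol and 16 genes, with names ending in 2, whose enzymes work in mitochondria, 36 of the 55401 genes in the count tables. Libraries made from poly(A) RNA fall, by their titles, into a control siRNA group (genotype WT) and a Nop16 siRNA group (genotype Nop16 KD), with 3 libraries in each. All samples share a treatment text with a Nop16 siRNA at 20 nM for 3 days and carry the treatment tag no, so what the controls received besides the name of their group is not known here. The title of the series concerns NOP16, a nucleolar protein, as a histone mimetic. Since separate cultures are not named in the labels, every p-value refers to the spread among these 6 libraries alone, and that spread may be technical.

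A synthetase activates its amino acid with ATP and passes it to the end of the matching tRNA, which an elongation factor then carries to the ribosome. The enzymes form classes I and II, which differ in the fold of the catalytic domain. In animal cells several cytosolic enzymes sit together in the multisynthetase complex, held by the scaffold proteins AIMP1, AIMP2 and EEF1E1. Mitochondria translate their own few messages with a separate set of enzymes that are encoded in the nucleus and imported. Many cytosolic synthetase genes are also targets of ATF4, the transcription factor that answers to amino acid shortage.

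Library totals lay between 15601477 and 23061922 counts, and all 3 control totals were above all 3 of the Nop16 siRNA group. After thinning to equal depth, 17 of the 19 synthetase calls given below were kept. Nop16 itself stood at 17.67, 18.78 and 20.18 CPM (counts scaled to library size) in control replicates 1 to 3 and at 3.94, 4.14 and 4.56 CPM in the Nop16 siRNA replicates, a fall of 2.16 on the log2 scale (SE 0.12, edgeR adjusted p = 3.31e-23). Of the macrophage markers, Csf1r, Cd68, Itgam, Lyz2 and Ptprc were abundant, while Adgre1 was low at 7.80 ± 0.506 CPM in controls (SD, n = 3). Of these 6 markers, 4 were higher after Nop16 siRNA, Lyz2 most (log2 fold change 1.36), and 1 was lower. Over all genes tested, 23.0% were higher and 22.4% lower. The part of these markers in the synthetase values was not tested. Of 10 markers of other cell types, none reached the level needed for testing, and Cd3e, Cd8a, Krt18 and Siglech were among those that had no count in any library.

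Differences in the family were small, with Vars lower and Farsb higher as the clearest, and the cytosolic and mitochondrial sets each held genes of both directions. All 36 passed the filter on low counts, and 19 of them changed (52.8%), 8 higher and 11 lower. The background was 45.4% of 14269 genes tested, with 23.0% higher and 22.4% lower, and 54.2% of the 10791 tested genes that average 5 CPM or more, as all 36 members do (27.7% higher, 26.4% lower). The members' share of calls was thus near the background. A log2 difference is Nop16 siRNA minus control siRNA, as is a log2 fold change. A change here is a Benjamini-Hochberg adjusted p below 0.05 in edgeR's quasi-likelihood test over all genes. Changes were small: 1 member, Vars, passed the test with more than a 1.5-fold difference, against 8.59% of the genes at that level, and none differed 2-fold. Libraries of the groups did not overlap for 18 of the 36 genes, against 52.5% of all genes tested and 6475 of the 10791 at 5 CPM or more. In bulk RNA, fewer cells with a transcript and less transcript per cell cannot be told apart.

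**Figure D1:**
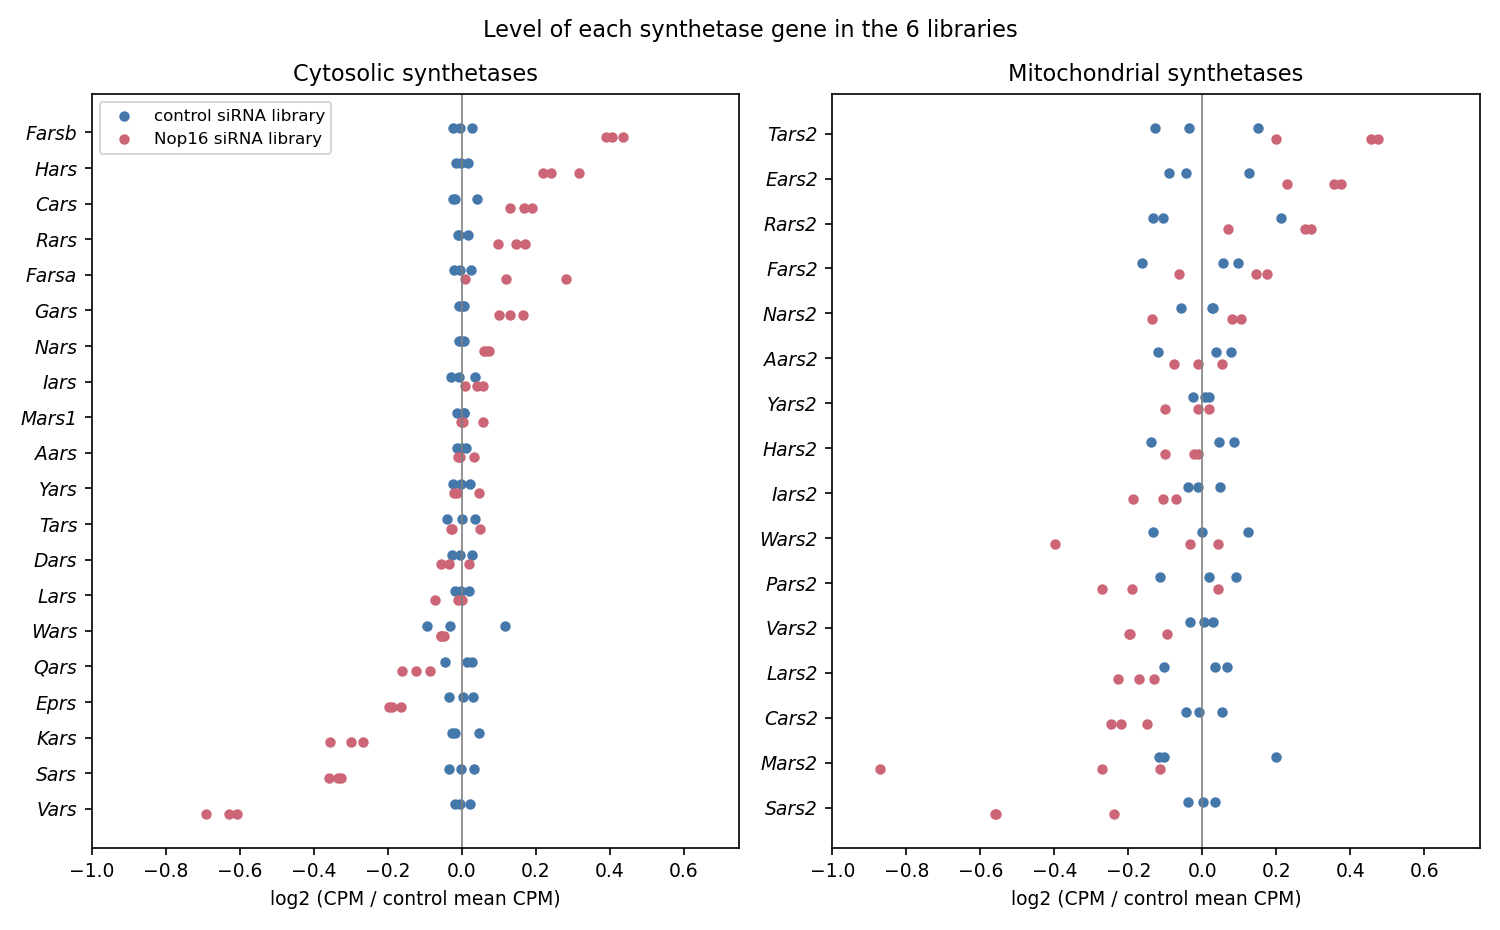
Each point is 1 library, placed by log2 of its CPM over the control mean of that gene, for the 20 cytosolic genes (left) and 16 mitochondrial genes (right), ordered by fold change. Control libraries (blue) and Nop16 siRNA libraries (red) lie apart at both ends of the cytosolic panel, from Vars at the bottom to Farsb at the top, and the mitochondrial libraries scatter more widely.

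Among the cytosolic enzymes, 6 genes were higher, 5 lower and 9 did not pass. Their median log2 fold change was 0.005, next to 0.00 for all genes tested. The sign of so small a median turned with library size scaling (-0.018), with upper quartile scaling (-0.004), with no filter (-0.002), with the length trend removed (-0.006) and without Nop16 siRNA replicate 3 (-0.005). Summed over the 20 genes, the level was 4147 to 4178 CPM in control libraries and 3993 to 4058 CPM in Nop16 siRNA libraries. Abundant genes weigh most in this sum, such as Sars with means of 571.4 and 451.8 CPM and Vars with 258.8 and 165.8 CPM. It does not describe the set gene by gene, since 6 genes were higher.

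The largest change in the family was a fall of Vars, the gene of the valine enzyme (ENSMUSG00000007029, chromosome 17 from 35000987 to 35016322, plus strand, GRCm38). It stood at 255.8, 262.7 and 258.0 CPM in control replicates 1 to 3 and at 169.8, 160.2 and 167.4 CPM in Nop16 siRNA replicates 1 to 3. Every Nop16 siRNA library was far below every control library. The gene fell by 0.64 on the log2 scale (SE 0.03, edgeR adjusted p = 1.83e-24) to 0.64 of the control level. In mammals this enzyme binds elongation factor eEF1 subunits rather than the multisynthetase complex.

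Sars, the gene of the serine enzyme, fell next. It had 570.9, 558.2 and 585.1 CPM in controls and 453.3, 446.0 and 456.1 CPM after Nop16 siRNA, a log2 fold change of -0.34 (SE 0.03, edgeR adjusted p = 1.82e-15). It was the cytosolic member with the highest CPM in both groups, and a wide gap lay between the groups. Kars encodes the lysine enzyme of both cytosol and mitochondria, which arise from 1 gene by alternative splicing. It went from 100.6, 105.8 and 101.2 CPM to 80.1, 85.18 and 83.27 CPM (log2 difference -0.31, SE 0.04, edgeR adjusted p = 2.35e-08), again with no overlap.

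Smaller falls were seen in Eprs and Qars. Eprs makes a fused enzyme for glutamate and proline, and it stood at 336.6, 330.6 and 322.2 CPM against 287.7, 294.3 and 289.4 CPM (log2 difference -0.18, SE 0.03, edgeR adjusted p = 1.01e-06). Qars, the glutamine enzyme, stood at 160.9, 159.5 and 153.1 CPM against 145.0, 141.2 and 148.8 CPM (-0.12, SE 0.04, edgeR adjusted p = 0.00424). In both genes all Nop16 siRNA libraries were below all controls, though for Qars the gap between the groups was only a few CPM. These 5 falls kept their call in all 18 alternative settings.

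The rises were led by Farsb, which encodes the beta subunit of the phenylalanine enzyme (ENSMUSG00000026245, chromosome 1 from 78417975 to 78488897, minus strand). It stood at 83.57, 80.66 and 81.82 CPM in controls and at 107.5, 108.8 and 111.0 CPM in Nop16 siRNA libraries. The gene rose 1.33-fold (log2 fold change 0.41, SE 0.04, edgeR adjusted p = 1.54e-12), with a clear gap between the groups. Farsa, which encodes the alpha subunit of the same enzyme, had 51.46, 52.0 and 53.06 CPM in controls and 63.39, 56.71 and 52.46 CPM after Nop16 siRNA. Its groups overlapped, and its call was near the threshold (log2 fold change 0.14, SE 0.06, edgeR adjusted p = 0.0419). Without Nop16 siRNA replicate 1 the Farsa value was 0.07 with an edgeR adjusted p of 0.394, and the call was also lost without any of the other libraries except Nop16 siRNA replicate 3, as well as in DESeq2 (adjusted p = 0.0999).

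Hars, the histidine enzyme, followed Farsb. It stood at 58.7, 59.56 and 58.23 CPM in controls and at 68.55, 73.33 and 69.49 CPM after Nop16 siRNA (log2 fold change 0.26, SE 0.05, edgeR adjusted p = 1.35e-05). Its libraries were well separated by group. Cars, the cysteine enzyme, went from 167.0, 159.6 and 160.4 to 185.3, 177.7 and 182.5 CPM (0.16, SE 0.04, edgeR adjusted p = 8.42e-05). Rars, the arginine enzyme, went from 241.3, 236.8 and 237.1 to 255.3, 264.1 and 268.5 CPM (0.14, SE 0.03, edgeR adjusted p = 0.000219). Gars, the glycine enzyme of both cytosol and mitochondria, went from 364.6, 365.4 and 362.5 to 390.3, 398.3 and 408.1 CPM (0.13, SE 0.03, edgeR adjusted p = 0.000175). Each of these 3 genes was higher in every Nop16 siRNA library than in any control. Gars and Kars, the members that serve both compartments, thus moved in opposite directions.

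For the other 9 cytosolic genes the intervals were short, as far as the spread among these 6 libraries goes. Their log2 fold changes lay between -0.05 (Wars) and 0.07 (Nars), and their nominal 95% intervals lay between -0.14 and 0.12. Aars had 0.01 (interval -0.05 to 0.07), Tars 0.00 (-0.07 to 0.07), Yars 0.00 (-0.07 to 0.08), Mars1 0.02 (-0.05 to 0.09) and Lars -0.03 (-0.09 to 0.04). Iars stood at 0.04 and Dars at -0.02. Nars, the asparagine enzyme, narrowly missed the threshold (0.07, interval 0.01 to 0.12, edgeR adjusted p = 0.0557). Of the 9 intervals, only that of Nars lay wholly above 0. For Nars all 3 Nop16 siRNA libraries, at 406.8 to 411.0 CPM, were above the controls at 388.6 to 392.3 CPM. Wars, which interferon gamma is known to induce, varied more among controls (82.94 to 96.02 CPM) than among Nop16 siRNA libraries (85.07 to 85.55 CPM).

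**Figure D2:**
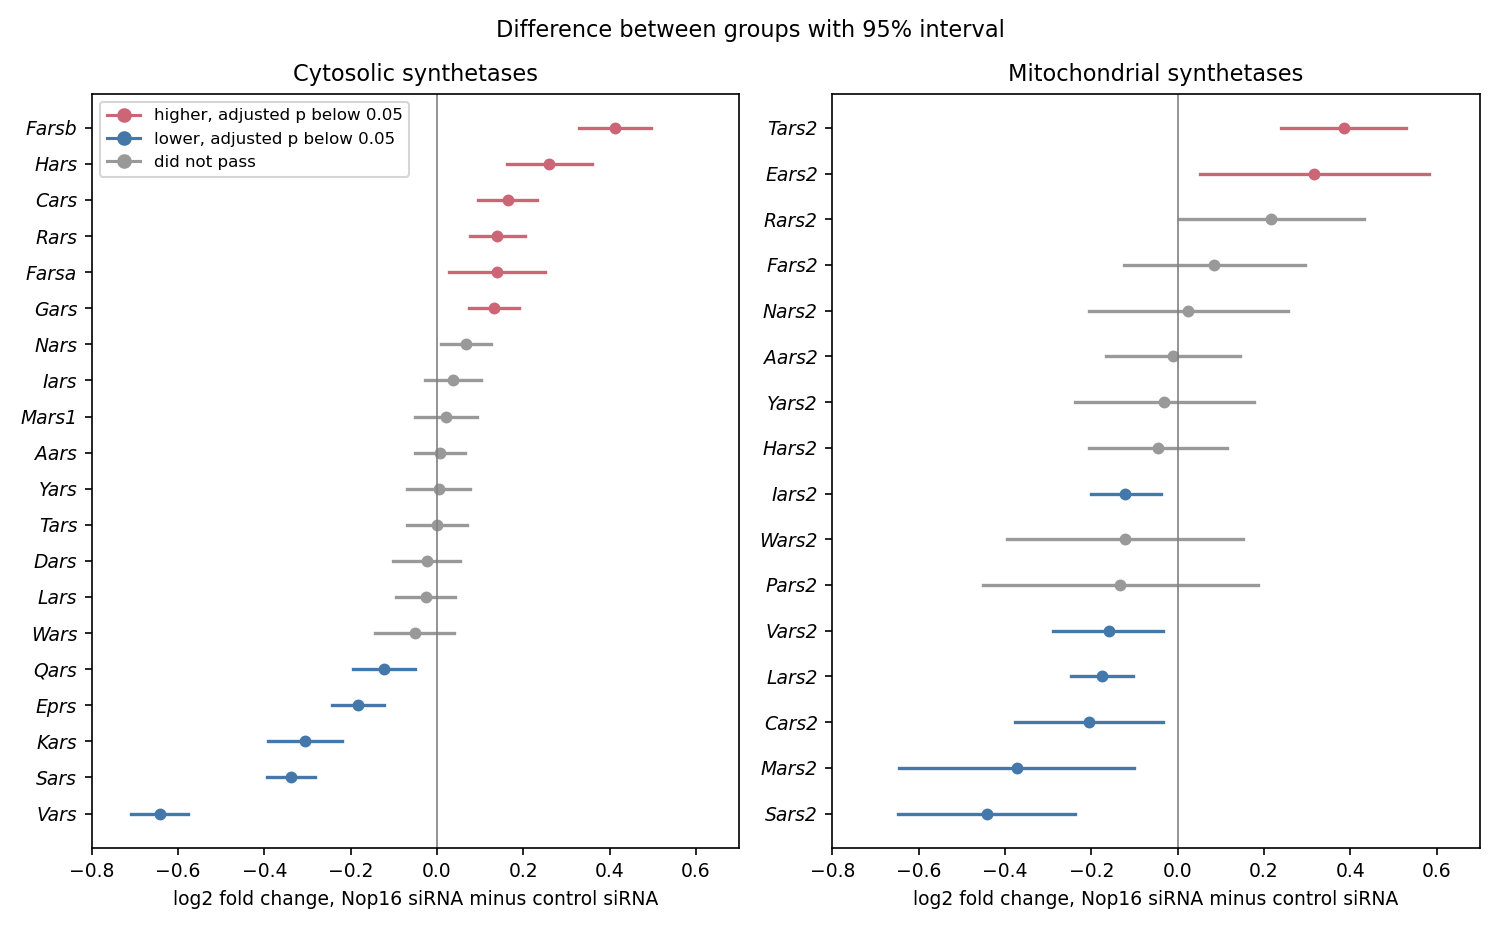
Points are log2 fold changes (Nop16 siRNA minus control siRNA), for cytosolic genes (left) and mitochondrial genes (right), coloured by edgeR call. Bars are nominal 95% intervals, a normal multiple of the SE. Vars at -0.64 stands apart from the other cytosolic genes. The 9 that did not pass have short intervals that include 0, except for Nars (0.01 to 0.12). Mitochondrial intervals are wider.

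In the mitochondrial set, 6 genes were lower, 2 higher and 8 did not pass. The median log2 fold change was -0.083, and 11 of the 16 values were negative. Without control replicate 3 the median was -0.041, and without Nop16 siRNA replicate 3 it was -0.04. The share of falls, 37.5%, can be read against 26.4% lower among all tested genes at this level. That share depended on the analysis, since 3 genes were lower in DESeq2 and also without Nop16 siRNA replicate 1 or 2, 4 without control replicate 2, and 2 without control replicate 1. Summed over the set, the level was 569.2 to 590.8 CPM in control libraries and 538.9 to 550.3 CPM in Nop16 siRNA libraries. Lars2 weighs most in this sum, with means of 243.0 CPM in controls and 215.2 CPM after Nop16 siRNA, so it does not describe the set gene by gene.

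Sars2, the mitochondrial serine enzyme, fell most. It stood at 14.53, 15.3 and 14.96 CPM in controls and at 10.13, 12.65 and 10.14 CPM after Nop16 siRNA (log2 fold change -0.44, SE 0.11, edgeR adjusted p = 0.000364). All 3 Nop16 siRNA libraries were below the controls, replicate 2 least so. Lars2, the leucine enzyme and the most abundant of the set, stood at 226.1, 248.7 and 254.3 CPM against 216.0, 221.9 and 207.6 CPM (-0.18, SE 0.04, edgeR adjusted p = 7.24e-05). The Lars2 groups did not overlap, but control replicate 1 lay close to the Nop16 siRNA libraries.

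Falls in Mars2, Cars2, Vars2 and Iars2 were near the threshold. Mars2, the methionine enzyme, had 12.21, 9.8 and 9.89 CPM in controls and 5.81, 8.8 and 9.82 CPM after Nop16 siRNA (log2 fold change -0.37, SE 0.14, edgeR adjusted p = 0.0258). Its groups overlapped, with control replicate 1 high and Nop16 siRNA replicate 1 low. Without Nop16 siRNA replicate 1 the Mars2 value was -0.19 (edgeR adjusted p = 0.264), and without control replicate 1 it was -0.26 (edgeR adjusted p = 0.17). Cars2, for cysteine, went from 18.13, 19.38 and 18.57 to 16.85, 15.76 and 16.06 CPM (-0.21, SE 0.09, edgeR adjusted p = 0.0489). Its call was lost when any 1 library was left out. Vars2, for valine, went from 39.48, 38.81 and 37.8 to 33.76, 33.82 and 36.24 CPM (-0.16, SE 0.07, edgeR adjusted p = 0.038). Iars2, for isoleucine, went from 115.9, 111.2 and 109.2 to 106.8, 98.47 and 104.2 CPM (-0.12, SE 0.04, edgeR adjusted p = 0.0137). In DESeq2, Mars2, Cars2 and Vars2 did not pass (adjusted p = 0.0638, 0.104 and 0.0716). Vars2 no longer passed with replicate 1 (edgeR adjusted p = 0.0968) or 2 (0.0819) of the controls left out, nor with replicate 1 (0.11) or 2 (0.104) of the Nop16 siRNA group left out, and Iars2 no longer passed without control replicate 1 (0.0924) or Nop16 siRNA replicate 2 (0.116).

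Tars2, the mitochondrial threonine enzyme, rose. It stood at 33.66, 27.76 and 29.56 CPM in controls and at 34.79, 41.59 and 42.15 CPM after Nop16 siRNA, a 1.31-fold difference (log2 fold change 0.38, SE 0.07, edgeR adjusted p = 2.2e-05). The groups did not overlap, though Nop16 siRNA replicate 1 was little above control replicate 1. Ears2, which charges mitochondrial tRNA with glutamate, went from 6.38, 7.18 and 6.17 to 8.52, 7.71 and 8.41 CPM (0.32, SE 0.14, edgeR adjusted p = 0.0498). Its call did not hold in DESeq2 (adjusted p = 0.0994) or without any of 4 single libraries, namely control replicates 1 and 3 and Nop16 siRNA replicates 1 and 3. Rars2, the arginine enzyme, missed the threshold (0.22, edgeR adjusted p = 0.103) and passed without control replicate 2 (edgeR adjusted p = 0.0224) or without Nop16 siRNA replicate 1 (0.0497).

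The remaining mitochondrial genes had log2 fold changes of -0.01 (Aars2), 0.08 (Fars2), -0.05 (Hars2), 0.02 (Nars2), -0.13 (Pars2), -0.12 (Wars2) and -0.03 (Yars2). Their lower counts leave more room: over the 8 genes that did not pass, Rars2 included, the nominal 95% intervals spanned -0.45 to 0.43. That of Rars2 (0.002 to 0.431) lay wholly above 0, although its unadjusted edgeR p was 0.0526. The intervals use a normal multiple of the SE and are somewhat narrower than the test implies. For Pars2 the counts were 72 to 124 per library. The coefficient of variation among control libraries had a median of 7.09% in the mitochondrial set and 1.68% in the cytosolic set.

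Scaled by the length of the gene models, the cytosolic genes were the more abundant. In controls they ran from 11.5 (Farsa) to 117.0 (Gars) CPM per kilobase with a median of 30.4, and the mitochondrial genes ran from 0.941 (Mars2) to 21.9 (Lars2) with a median of 3.98. Gars (117.0 ± 0.484), Sars (111.0 ± 2.62), Nars (89.6 ± 0.437) and Rars (73.9 ± 0.775, SD, n = 3 each) led the order, each above the next by more than the sum of their SDs. A run of genes from Dars (26.3) through Wars, Cars, Qars, Hars, Yars and Kars (23.0) to Lars2 (21.9) differed from neighbour to neighbour by no more than that. The exon unions counted differ much in length, with 18102 bases for Eprs and 2620 for Farsb, so these levels depend on the gene models. After Nop16 siRNA, Sars stood at 87.9 ± 1.01, below Nars at 93.9 ± 0.487 CPM per kilobase. Vars moved from rank 5 to rank 10 of the 36 and Farsb from rank 10 to rank 5. The later ranks are not firm. Farsb (41.7 ± 0.678) was within the sum of SDs of Mars1 (40.8 ± 0.953) and Iars (40.8 ± 0.703), and Vars (29.6 ± 0.888) of Tars (29.5 ± 0.921).

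**Figure D3:**
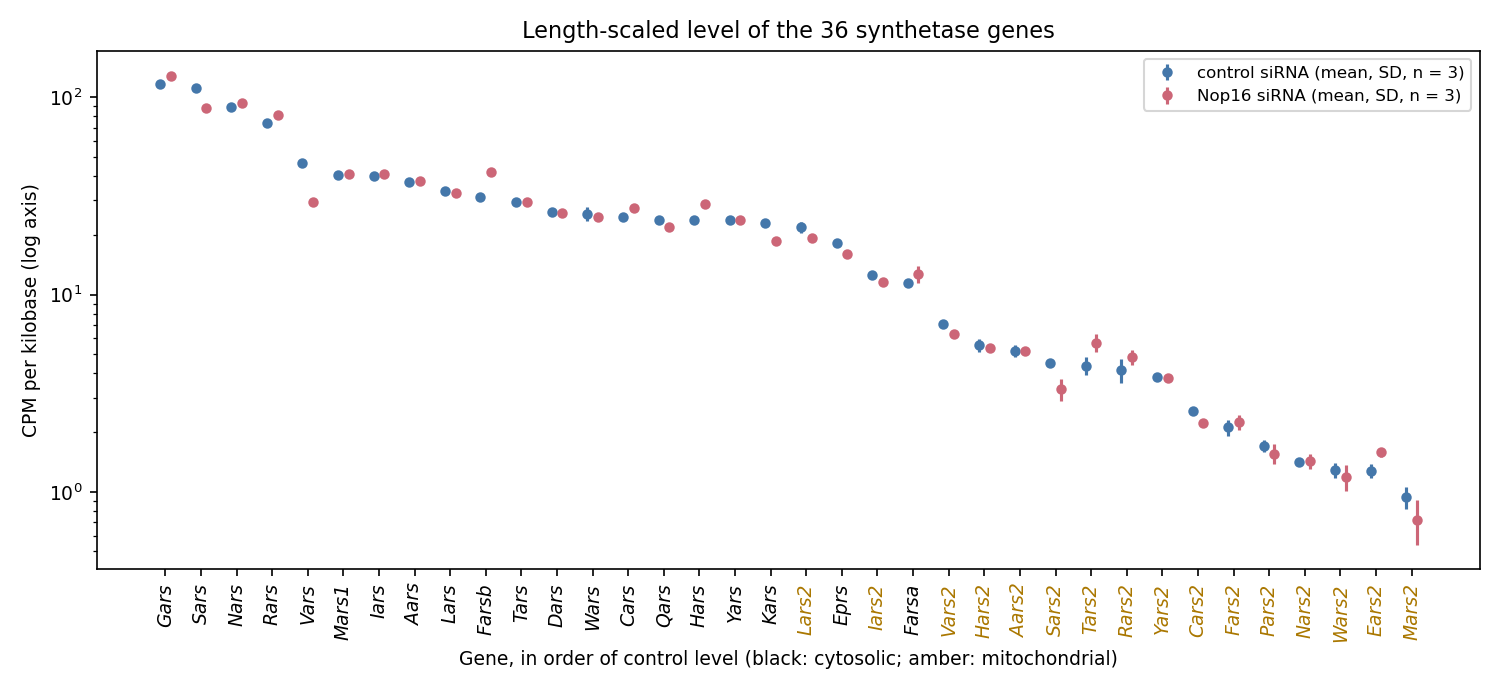
The vertical axis is CPM per kilobase of gene model on a log scale, as mean with SD over 3 libraries, for control siRNA (blue) and Nop16 siRNA (red), with genes in order of the control level. Mitochondrial genes (amber names) fill the right side except for Lars2 and Iars2, and the exchange of Vars (46.2 to 29.6) and Farsb (31.3 to 41.7) stands out.

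The enzymes for the same amino acid in the 2 compartments can be set side by side. Of 16 pairs of a mitochondrial and a cytosolic gene (Farsa standing for phenylalanine and Eprs for both glutamate and proline), 2 were lower together, those for serine (Sars -0.34, Sars2 -0.44) and valine (Vars -0.64, Vars2 -0.16). In 2 pairs the calls were opposite: Cars was higher and Cars2 lower, and Eprs was lower and Ears2 higher. The calls of Vars2, Cars2 and Ears2 are among those near the threshold. Tars stood at 0.00 beside Tars2 at 0.38, and Mars1 at 0.02 beside Mars2 at -0.37. All these values share the same 6 libraries.

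**Figure D4:**
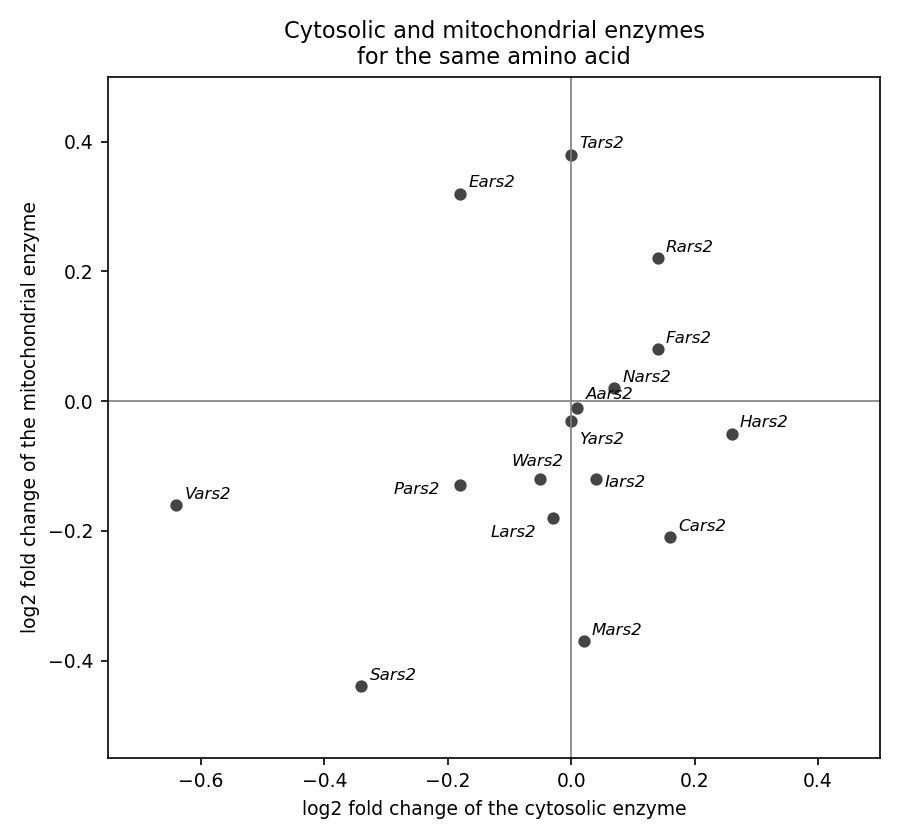
Each point is a mitochondrial gene, placed by its own log2 fold change (vertical) and that of the cytosolic gene for the same amino acid (horizontal). Sars2 and Vars2 lie in the lower left, Ears2 in the upper left and Cars2 in the lower right, with Tars2 and Mars2 near the vertical line at 0.

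The multisynthetase complex has 8 enzymes, from the genes Eprs, Iars, Lars, Mars1, Qars, Rars, Kars and Dars. Of these, 3 were lower, 1 was higher and 4 did not pass, with a median of -0.03. That share changed, 4 of 8, was near the 54.2% of tested genes at 5 CPM or more (27.7% higher, 26.4% lower). The scaffold genes differed among themselves. Aimp1, whose product also binds tRNA, went from 82.07, 85.6 and 84.88 to 62.09, 58.84 and 65.75 CPM (log2 difference -0.44, SE 0.05, edgeR adjusted p = 2.68e-11), with every Nop16 siRNA library well below the controls. Eef1e1 rose slightly (0.20, SE 0.08, edgeR adjusted p = 0.0256), a call lost in DESeq2 (0.0514). It was also lost when replicate 1 or 3 of the controls was left out (edgeR adjusted p = 0.0963 and 0.0501) and when replicate 1 or 3 of the Nop16 siRNA group was (0.11 and 0.0905). Aimp2 did not pass (0.19, edgeR adjusted p = 0.0971), though it did without control replicate 2 (0.0358) or Nop16 siRNA replicate 1 (0.0369).

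By class, 4 of 10 class II cytosolic genes were higher and 2 lower, and 2 of 10 class I genes were higher and 3 lower. In mitochondria, 5 of 9 class I genes were lower and 1 higher, and 1 of 7 class II genes was lower and 1 higher. Among all tested genes with a mean of 5 CPM or more, 27.7% were higher and 26.4% lower. No test of a difference between the classes was made, and several of the mitochondrial calls are near the threshold.

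A list of 12 cytosolic synthetases responsive to ATF4 was written from general knowledge and was not checked against literature, so the split from the other 8 is unverified. Of the 12, 2 were lower (Sars and Eprs), 2 higher (Cars and Gars) and 8 did not pass, with a median of 0.01. Of the other 8, 3 were lower (Vars, Kars and Qars), 4 higher (Farsb, Hars, Rars and Farsa) and only Dars did not pass. The shares changed were 33.3% of the 12 and 87.5% of the other 8, against 54.2% of tested genes at 5 CPM or more. The split is unverified, and no difference between the lists was tested. The amino acid response genes themselves were mixed: 8 of 16 tested were higher and 4 lower. That is 75.0% changed, against 45.4% of all genes tested and 54.2% of those at 5 CPM or more. Atf4 rose 1.08-fold, from 472.4 ± 9.41 to 512.3 ± 11.8 CPM (SD, n = 3 each). The eIF2 kinase gene Eif2ak3 rose by 0.47 on the log2 scale, while Trib3, a pseudokinase that restrains ATF4, fell by 0.84 and Ddit3, which encodes CHOP, by 0.62. Asns, the asparagine synthetase gene, was at -0.06 (edgeR adjusted p = 0.186).

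The sequence TGATGNAA, the core of composite sites bound by ATF4 with C/EBP proteins, was searched on both strands in RefSeq promoter windows (GRCm38.p6) that reach from 250 bases before to 50 bases after a gene's start. Windows were matched for 13 cytosolic and 14 mitochondrial genes, 28 windows in all. Members are counted here and below as genes, while the shares over all windows count single windows. TGATGNAA was found in 5 of the 13 cytosolic and in none of the 14 mitochondrial genes, against 3.97% of 32851 windows. TGATGCAA, the form with C in the open position, was in 4 of the 13 and in 0.895% of windows. Stretches of 30 bases are shown for 4 of these genes, which are on the ATF4 list and share the letters, and of which Gars passed the test and the others did not. Capitals mark the motif, and each stretch is written so that the motif reads forward.
Iars, chr13:49682126-49682155, minus strand: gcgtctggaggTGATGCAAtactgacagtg
Tars, chr15:11399655-11399684, plus strand: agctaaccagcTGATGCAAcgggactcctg
Yars, chr4:129189895-129189924, plus strand: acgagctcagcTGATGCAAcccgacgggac
Gars, chr6:55037960-55037989, minus strand: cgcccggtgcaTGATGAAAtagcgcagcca

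In Gars the motif lies 30 bases before the start and in Tars 15, and in Iars and Yars it lies just after the start. The log2 fold changes of these genes were 0.04 (Iars), 0.00 (Tars), 0.00 (Yars) and 0.13 (Gars). Sars and Eprs, which fell, and Mars1, which did not pass (0.02), are on the same list and their windows hold no such letters. That says only that these letters are not in the window.

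Farsb and Sars had the largest rise and the largest fall among the 13 cytosolic genes with a window, and their windows are printed whole, on the minus strand of chr1:78488848-78489147 and chr3:108445210-108445509. Capitals mark CACGTG, the E-box that MYC and USF proteins can bind.
Farsb: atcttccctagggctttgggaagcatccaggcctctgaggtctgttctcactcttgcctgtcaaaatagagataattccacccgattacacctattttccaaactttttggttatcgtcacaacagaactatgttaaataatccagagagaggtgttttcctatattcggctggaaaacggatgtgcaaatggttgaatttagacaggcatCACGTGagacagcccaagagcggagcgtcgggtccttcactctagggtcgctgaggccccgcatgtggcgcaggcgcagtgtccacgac
Sars: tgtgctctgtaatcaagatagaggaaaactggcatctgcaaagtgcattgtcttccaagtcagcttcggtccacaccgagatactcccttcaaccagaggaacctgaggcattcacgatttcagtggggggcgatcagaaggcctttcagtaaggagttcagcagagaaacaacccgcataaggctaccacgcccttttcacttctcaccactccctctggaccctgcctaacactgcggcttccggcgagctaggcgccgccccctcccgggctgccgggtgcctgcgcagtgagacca

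CACGTG was in the windows of 4 cytosolic genes, Farsb, Iars and Tars among them, and 1 mitochondrial gene (Ears2), against 7.15% of windows. Of those named, Farsb (0.41) and Ears2 (0.32, near the threshold) were higher, and Iars (0.04) and Tars (0.00) did not pass. Any link between this motif and the changes was not tested. The cyclic AMP response element TGACGTCA was in none of the members' windows (1.79% of all), and the interferon-type element TTTC, any 2 bases, TTTC was in Qars only (3.44% of all). These 5 motifs were all that were searched, and TGATGCAA is a subset of TGATGNAA.

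Genes that work beside the synthetases showed changes in both directions. Their counts can be read against the 45.4% of all genes tested that changed. Of 4 genes that amidate or formylate charged mitochondrial tRNA, Mtfmt, the formyltransferase of the initiator, rose 1.3-fold (log2 fold change 0.38, edgeR adjusted p = 6.64e-06) and Qrsl1, Gatb and Gatc did not pass. Of 5 genes of tRNA editing or synthetase-like proteins, Aarsd1, which clears mischarged alanine tRNA, fell by 0.44 and Tarsl2, a second threonine enzyme of the cytosol, by 0.43. Dtd2 was higher (0.33, edgeR adjusted p = 0.0308) with overlapping groups, a call lost in DESeq2 (0.0881), with replicate 1 or 2 of the controls left out (edgeR adjusted p = 0.144 and 0.237), and with replicate 1 or 3 of the Nop16 siRNA group left out (0.0654 and 0.0962).

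Of 25 tested genes of tRNA maturation and export, 6 were higher and 1 lower. That is 28.0% changed, below the 45.4% of all genes tested. The RNase P subunit genes Pop7 (0.39) and Pop5 (0.34), the mitochondrial RNase P gene Trmt10c (0.38) and the ligase cofactor gene Zbtb8os (0.21) rose most. The Zbtb8os call was near the threshold (edgeR adjusted p = 0.0455). It did not hold in DESeq2 (0.102), nor with control replicate 3 left out (edgeR adjusted p = 0.281), nor with replicate 1 or 2 of the Nop16 siRNA group left out (0.0704 and 0.195). With library size scaling, with the length trend removed, and without control replicate 3, 3 were higher. The 1 lower gene, Ssb, lost its call without control replicate 1 (edgeR adjusted p = 0.0706) or Nop16 siRNA replicate 1 (0.126). The tRNA exportin gene Xpot did not pass (-0.07, edgeR adjusted p = 0.132). Of 20 genes of RNA polymerase III and its factors, which make tRNA, 3 were higher and 4 lower (35.0% changed, also below that share). Gtf3c6 (0.44) and Polr3d (0.37) rose, and Polr3b (-0.26) and Gtf3c5 (-0.24) fell, and without Nop16 siRNA replicate 3 the number lower was 2.

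Some counts can be shared with other genes. Fragments that map to several places or overlap several genes were counted for each, and counting used strand. Aars shares 14.3% of its exonic length with Exosc6 on the same strand. Iars has 2209 bases at 95% identity or more in Gm4849, which had a mean of 68.2 counts per library. Shorter stretches of 100 bases or more are shared with transcripts of other genes by Farsa, Kars, Cars2 and Tars2, and some of those genes have more counts than the member. Cars2, with 261 to 451 counts per library, shares up to 171 bases with genes of which the most abundant had a mean of 10126.5 counts. For Tars2 (539 to 777 counts) that mean was 1749, for Farsa (967 to 1210 counts) 2530 and for Kars (1241 to 2462 counts) 1014. The values of these members are uncertain for that reason, and how many fragments were shared was not tested. For look-alike stretches, the longest transcript of each member was searched against annotated transcripts only. Within that search no other member shared such a stretch, and no other member shared a same-strand exon. Sequence outside those transcripts was not searched.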

How the data were processed

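The authors deposited raw fragment counts by gene, made with featureCounts 2.0.1 on a filtered Ensembl release 101 annotation of GRCm38, per the file headers (paired, strand setting 2, minimum overlap 10 bases, multi-mapped and multi-overlapping fragments counted). The submitters' processing notes name Trim Galore and HISAT2 2.2.1. The gene length column (exon union, in bases) is another deposited value. Symbols were matched for 55141 of 55401 identifiers, and Mars1 was matched by its older symbol, Mars.

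Counts were tested with edgeR 4.0.16 (R 4.3.3): TMM scaling, filterByExpr, robust quasi-likelihood fit on group, Benjamini-Hochberg adjusted p below 0.05 over 14269 genes. SE was obtained from the log2 fold change and the square root of F. CPM use TMM-scaled library sizes, and 3 counts equal 0.13 to 0.192 CPM. Such floors cover counting error only. For replicates of the same group, chi-square over degrees of freedom lay between 2.46 and 3.01, so none agreed within sampling noise. Alternatives used DESeq2 1.42.0, limma 3.58.1 (voom), other scalings, filters, thinning, a length correction, a replicate block and each library left out. On simulated counts for 14269 genes of this comparison, edgeR recovered 54% of genes changed 1.2-fold and 100% at 1.5-fold or more, with 8 false among 185 calls. The simulation changed 50 genes at each fold, all at 5 CPM or more, while 6484 genes were called in the real counts. Its rates of recovery and of false calls may therefore not hold for the real comparison. Shared exons and look-alike transcripts (GENCODE mouse release 21) were found with bedtools 2.31.1 and BLAST 2.17.0.

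Every member could be named, with library values for the 6 largest changes that passed in each direction of each set. Of each related list, up to 4 changed genes, or up to 2 abundant ones, could be named; a few others are named to complete a list or a count and were chosen after their values were seen. The members and lists were chosen with earlier results of these data known. Besides those given, a further marker gene and a further promoter stretch are not reported here.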

Additional observations from a re-analysis of the deposited data

How the results depend on the processing

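Of the 36 synthetase genes, 19 kept their direction and their side of the threshold in all 18 alternative settings, 13 of them called: Vars (log2 fold change -0.67 to -0.62), Sars, Kars, Eprs, Qars, Farsb, Hars, Cars, Rars, Gars, Lars2, Sars2 and Tars2. The number of mitochondrial genes higher, 2, was 1 with library size only, upper quartile scaling, TMM without ribosomal protein genes, DESeq2, limma-voom, no filter, thinning, and removal of the length trend. The number lower, 6, was 3 in DESeq2, 4 with no filter, 4 with the length trend removed, 5 in limma-voom and 5 with thinning. Leaving out single libraries gave 1 to 3 higher and 2 to 5 lower. The cytosolic median was -0.018 with library size only, -0.006 with the length trend removed, -0.004 with upper quartile scaling and -0.002 with no filter. With single libraries left out it was -0.005 to 0.015, and the mitochondrial median -0.095 to -0.04. The sign turned only for genes that did not pass. With library size only, Aars was at -0.016, Mars1 at -0.003, Tars at -0.022 and Yars at -0.019. With upper quartile scaling Aars was at -0.003, Tars at -0.009 and Yars at -0.006, and without ribosomal protein genes Tars was at -0.005 and Yars at -0.001. With no filter Aars was at -0.001, Tars at -0.007 and Yars at -0.003, and with at least 5 CPM in 3 libraries Tars was at -0.003. With the length trend removed Mars1 was at -0.01, Tars at -0.008 and Yars at -0.004, and with thinning Aars2 was at 0.005 and Nars2 at -0.023. Leaving out single libraries gave ranges of -0.009 to 0.015 for Aars, -0.001 to 0.032 for Mars1, -0.028 to 0.018 for Tars, -0.017 to 0.016 for Yars, -0.097 to 0.009 for Wars, -0.068 to 0.028 for Aars2, -0.021 to 0.094 for Nars2, -0.204 to 0.005 for Wars2 and -0.057 to 0.003 for Yars2. The cause of these changes was not tested. Replicate numbers did not pair the libraries (correlations of same-numbered deviations 0.0175, -0.0198 and -0.0223). With the replicate as a block, 3241 genes were higher and 3186 lower, the mitochondrial set had 1 higher and 5 lower, and Tars was at -0.001. At these depths, genes near 10 CPM or below, such as Mars2, Ears2 and Pars2, have wide intervals.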
